A study of Rattus norvegicus and Mus musculus with 18 samples.

Results

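The stalk of the mouse ureteric bud was compared with the metanephric mesenchyme that surrounds it, over all probe sets of the mouse array. The comparison used the 2 arrays titled as stalk and the 2 titled as mesenchyme, 4 of the 18 arrays in the series, and the levels on the 2 bud tip arrays of the same stage are given beside them. The series profiled the parts of the embryonic kidney in mouse and rat to find transcripts restricted to one of them. All mouse tissue came from E12.5 embryos, a stage given in days of development, when a bud has branched into several tips on a common stalk. Kidneys were digested for 10 min with DNase and trypsin, the mesenchyme was freed with pins, and tips were then cut from stalks. About 350 stalks, 300 mesenchymes and 1000 tips were pooled. No strain, genotype or sex is given for the animals in the labels, and no treatment beyond the digestion. The submitters checked the separation of bud from mesenchyme by eye and with a lectin that binds the bud. The RNA of each tissue was 1 pool labelled for 2 arrays, so the p-values below measure only the spread of labelling and hybridisation, not that between animals, and with so few arrays the precision of every value is limited.

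The metanephric kidney grows by an exchange of signals between its parts. The mesenchyme around the bud secretes GDNF, which acts through the receptor RET to make the bud branch, and the bud in turn sends Wnt signals that make progenitors in the mesenchyme form nephrons. The stalks behind the tips become the collecting ducts and, nearest the bladder, the ureter, whose outer sheath of mesenchyme responds to Hedgehog from the epithelium and later forms smooth muscle. The mesenchyme itself holds nephron progenitors, stromal progenitors, vessels and blood.

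Values are normalised intensities, a linear brightness of the probe set that stands for a gene, and differences are stalk minus mesenchyme on the log2(intensity + 16) scale, which understates the change of weakly expressed genes. A gene was called higher in a tissue when its difference was at least 2-fold and its limma p, adjusted by Benjamini-Hochberg over all tested probe sets, was under 0.05. Of 23937 tested probe sets 663 were called (2.77%), 561 on the stalk side (2.34%) and 102 on the mesenchyme side (0.426%). At the level of genes, 432 of 12359 were called (3.5%), 363 with the higher level in stalks (2.94%) and 69 with the higher level in mesenchyme (0.558%), and the median difference over all tested genes was -0.05. With no minimum fold, 1225 genes (9.91%) had a positive and 705 (5.7%) a negative difference with an adjusted p under 0.05. The repeat arrays correlated at r = 0.998 for stalks and 0.996 for mesenchyme across probe sets, which are not independent replicates, and stalk arrays correlated with mesenchyme arrays at 0.984 to 0.987. Ratios of 3' to 5' signal lay between 0.903 and 1.01 for the Gapdh control and between 1.26 and 1.34 for the Actb control over the 6 mouse arrays. The arrays of the 2 tissues did not overlap for 62.1% of the tested genes, so a lack of overlap alone says little about a gene. Below, 2 values given for a tissue are its 2 arrays. Counts of called genes in a list stand beside the shares of all tested genes, 2.94% in stalks and 0.558% in mesenchyme.

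The differences on the stalk side were larger as well as more numerous. Among genes at least 4-fold apart, 102 were higher in stalks and 7 in mesenchyme. Among genes at least 8-fold apart the counts were 33 and 0, and 3 genes, all higher in stalks, passed 32-fold: the calcium-binding protein Calb1, the tight junction protein Cldn8 and the epithelial cadherin Cdh1. Calb1 was at 4289.9 and 4388 in the stalk arrays and 61.9 and 38.5 in the mesenchyme arrays (6.06, SE 0.13, adjusted p = 2.53e-08). The largest difference on the mesenchyme side was that of Meox1, a homeobox gene of early mesoderm, at 1025 and 980.1 in mesenchyme and 143 and 152 in stalks (-2.64, SE 0.083, adjusted p = 1.83e-07). The groups did not overlap for either gene, but the lower tissue was close to background for Calb1 and well above it for Meox1. The lower tissue was below the table's median of 49.5 for 149 of the 363 stalk genes and for 9 of the 69 mesenchyme genes, and the size of such a difference depends on the pseudocount.

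Besides the genes of the lists described below, the 15 largest differences in each direction held 6 others. Sgpp2, a sphingosine phosphatase, was at 464 and 436 in stalks and 18 and 22 in mesenchyme (3.70), and Tmem30b, a subunit of lipid flippases, at 506 and 516 and 23.6 and 27 (3.68). On the mesenchyme side, Arg1, an arginase, was at 565 and 581 in mesenchyme and 93.5 and 71.7 in stalks (-2.59), Actn3, a muscle actinin, at 795 and 731 and 159 and 156 (-2.17), and Snap91, a clathrin assembly protein of synapses, at 571 and 614 and 165 and 151 (-1.81). Moxd1, a monooxygenase-related gene outside the lists too, was at 918 and 957 and 259 and 274 (-1.75). For the 2 stalk genes the mesenchyme arrays were near background.

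**Figure D1:**
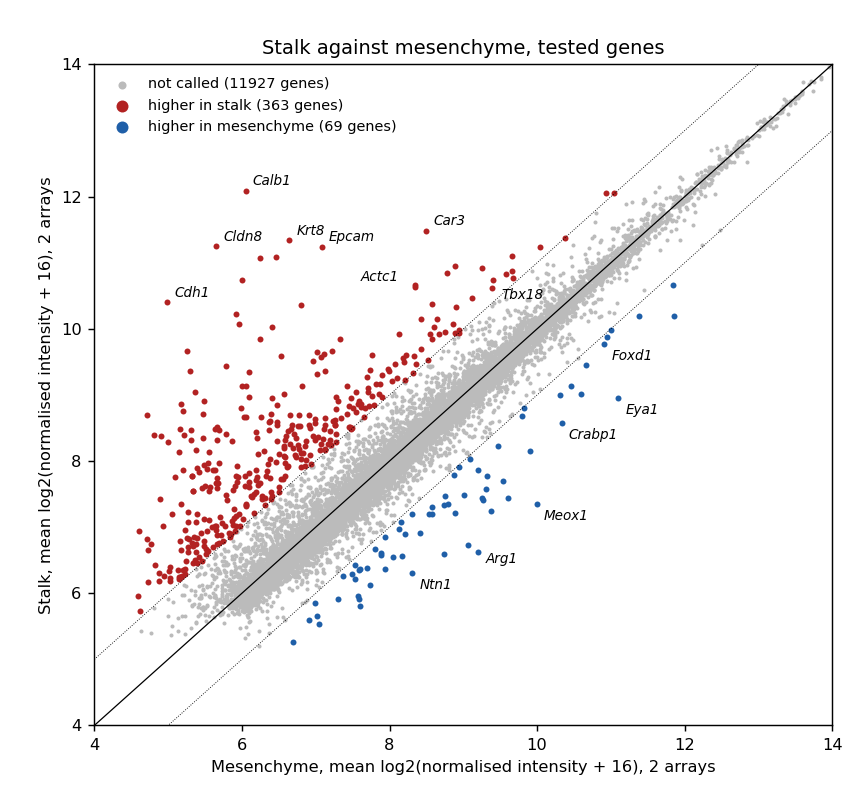
Each point is a tested gene, placed by its mean log2(normalised intensity + 16) over the 2 mesenchyme arrays (x axis) and the 2 stalk arrays (y axis); red points were called higher in stalk (363), blue points higher in mesenchyme (69), the solid line marks equal levels and the dotted lines a 2-fold difference. The red points reach much farther from the diagonal than the blue ones, with Calb1, Cldn8 and Cdh1 the farthest.

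The labels were checked against markers of each cell type. All 7 measured markers of bud epithelium were higher in stalks, and 5 of 7 markers of nephron progenitors (Six2, Eya1, Osr1, Sall1 and Gdnf) were higher in mesenchyme. Stromal transcripts were present in the stalk arrays as well. All 6 stromal markers had means above the median of the table, 49.5, in both tissues and in tips. In tips only 4.55% of all tested genes had a mean below it, so that level alone says little. The fibrillar collagen Col3a1 was at 4137 and 4119.8 in the stalk arrays, 3806 and 3696 in the mesenchyme arrays and 566 and 511 in the tip arrays. Over 25 measured stromal genes the summed intensity was 28219 to 28545 in the stalk arrays, 29397 to 30226 in the mesenchyme arrays and 4701 to 5108 in the tip arrays. For 23 measured nephron progenitor genes the sums were 11344 to 11364, 23096 to 23187 and 3327 to 3474, and for 27 junction genes 18029.6 to 18278, 2435 to 2476 and 28199.7 to 28447. The stalk arrays thus lay near mesenchyme in stromal signal and between tips and mesenchyme in the progenitor and junction lists. Other lists could differ, as the ureteric mesenchyme and smooth muscle genes summed to 10232 and 10560 in stalks, 4567 and 4534 in mesenchyme and 3035 and 2890 in tips. The part of stromal and progenitor RNA in the results below was not tested. In pooled tissue, fewer cells of a type and less RNA per cell cannot be told apart, here and in every result below.

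Genes that make an epithelium were called on the stalk side. Of 28 genes listed for cell junctions and polarity, 26 were tested, 20 were higher in stalks and 0 in mesenchyme, with a median of 2.18 against -0.05 for all tested genes. Tight junctions, adherens junctions and desmosomes were all among them. Cdh16, a kidney-specific cadherin, was at 2049.5 and 2212 in the stalk arrays and 58.4 and 61.1 in the mesenchyme arrays, a log2 difference of 4.82 (SE 0.058, adjusted p = 7.17e-10). Ocln, the tight junction protein occludin, was at 383 and 399 and 42.9 and 56.2 (2.64, SE 0.11, adjusted p = 8.01e-07). Dsp, which anchors keratin filaments at desmosomes, was at 357 and 321 and 30.5 and 16.9 (3.18, SE 0.16, adjusted p = 2.88e-06). For all 3 the stalk arrays lay far above the mesenchyme arrays and the repeats close together. The desmosomal cadherins Dsg2 (2.85) and Dsc2 (2.42) and the plaque protein Pkp2 (1.87) were higher too, as were the tricellular junction protein Marveld2 (2.48), its relative Marveld3 (1.47), the junction plaque protein Cgn (1.81) and the polarity gene Pard6b (1.94). On the probe sets given here, Crb3 (1.12) and Llgl2 (1.23), which set apical and basal identity, lay near the threshold. On them Crb3 stood at 0.98 without the first mesenchyme array and Llgl2 at 0.97 without the second, both under 2-fold. All 3 tested probe sets of Crb3 were called in the main setting, with differences of 1.09 to 2.83. The 6 listed genes that were not called had positive differences of 0.35 to 0.91, and 5 of them had an adjusted p under 0.05.

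Claudins, the tight junction proteins that set which ions pass between cells, were divided within the family. Of 26 genes with a symbol that begins with Cldn, 14 were tested and 6 were higher in stalks. Cldn8 (5.60), Cldn4 (4.75), Cldn6 (4.31), Cldn7 (4.11) and Cldn3 (2.45) belong to the epithelial members. Cldn4 was at 1692 and 1697 in stalks and 52.1 and 43.4 in mesenchyme, and Cldn6, a claudin of embryonic epithelia, at 1136 and 1215 and 52.9 and 36.4. Both genes reached higher intensities still in the tip arrays, 2564 and 2711 for Cldn4 and 2182 and 2405 for Cldn6. The sixth, Cldn11 (1.45), differed from them in the tips. It was at 90.3 and 95.2 in the stalk arrays, at 25.7 and 22 in the mesenchyme arrays and at 14.4 and 9.82 in the tip arrays, below the table's median there. The endothelial claudin Cldn5 had a difference of -0.51 and was not called. Cadherins were found on both sides. Among 32 tested cadherins and protocadherins, Cdh1, Cdh16, Cdh3 (1.31) and the protocadherin Pcdh7 (2.00) were higher in stalks, and Cdh2, the N-cadherin of mesenchymal and neural cells, was higher in mesenchyme, at 1596 and 1625 against 678 and 687 (-1.22, SE 0.098, adjusted p = 5.12e-05).

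Keratins form the intermediate filaments of epithelial cells. Of 9 listed, 6 were tested and 4 were higher in stalks, Krt8 (4.70), Krt18 (4.63), Krt7 (3.45) and Krt19 (1.39). Krt7, a keratin of ducts and urothelium, was at 462 and 471 in stalks and 36.4 and 21 in mesenchyme, and the stalk level was close to the 495 and 454 of the tips. Krt5, a keratin of basal cells, differed by -0.04 (adjusted p = 0.873), and Krt14 and Krt15 were too low to be tested. The 4 called keratins are those of simple epithelia.

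Regulators of the epithelial state accompanied these structural genes. Of 14 listed transcription and splicing regulators, 10 were tested and 7 were higher in stalks, with a median of 1.83. Tfcp2l1, a grainyhead-related factor of collecting duct cells, was at 806 and 781 in the stalk arrays and 30 and 14.4 in the mesenchyme arrays (4.44, SE 0.16, adjusted p = 4.67e-07). Esrp1, which directs epithelial splicing, was at 638 and 641 and 21.6 and 25.4 (4.05, SE 0.077, adjusted p = 1.1e-08), with 1808 and 1708 in the tips. For both genes the groups stood more than 16-fold apart. Grhl2, an activator of junction genes, differed by 2.61, the ETS factor Elf5 by 2.45, Klf5 by 2.27 and the repressor of mesenchymal genes Ovol2 by 1.39. The ETS factor Ehf (1.15, adjusted p = 0.00914) did not pass without the first stalk array (adjusted p = 0.0547), the second stalk array (0.0764) or the second mesenchyme array (0.0902). Of 4 tested probe sets of Ehf, 3 were called in the main setting, with differences of 0.05 to 1.67 over the 4. Esrp2 (0.89) and Elf3 (0.97) had an adjusted p under 0.05 but were less than 2-fold apart.

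Genes of the apical membrane and of membrane traffic were higher for 6 of 13 tested, with a median of 0.80. Mal2, a protein of apical transport, was at 394 and 407 in stalks and 9.05 and 11.2 in mesenchyme (4.0, SE 0.093, adjusted p = 3.6e-08). The motor Myo5b (2.36), the raft protein Mal (1.66), the epithelial adaptor subunit Ap1m2 (1.54), the membrane linker Ezr (1.36) and the GTPase Rab17 (1.25) were the others. Ezr and Rab17 were not called when all probe sets of each gene were averaged, at 0.64 and 0.73. For Mal2 the mesenchyme arrays were at background, so its fold is set largely by the pseudocount.

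The matriptase system, a set of membrane serine proteases and their inhibitors in epithelia, followed the junction genes. Of 8 listed genes, 7 were tested and 6 were higher in stalks, with a median of 2.31. The protease St14 (matriptase) was at 191 and 186 in stalks and 48.9 and 40.9 in mesenchyme (1.75). Its partner Prss8 was at 324 and 324 and 30.2 and 48 (2.65). The inhibitors Spint1 (2.79) and Spint2 (2.31) were higher as well, so proteases and inhibitors were found on the same side. Spint2 was at 1523 and 1607 in stalks and 250.2 and 367 in mesenchyme. The proteases Tmprss2 (2.42) and Hpn (1.23), which also cleave at the cell surface, completed the group, and Tmprss4 (-0.06) was not called.

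**Figure D2:**
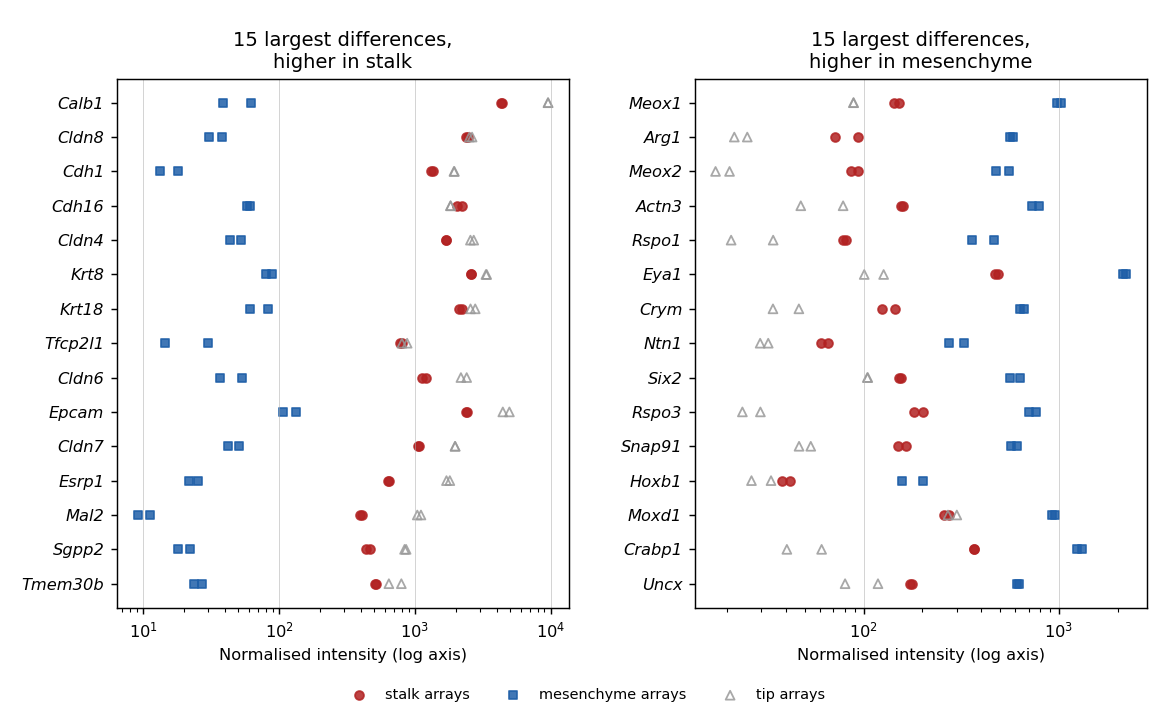
Normalised intensity (log axis) of the 15 genes with the largest differences in each direction on each stalk array (red circles), mesenchyme array (blue squares) and tip array (grey triangles). In the left panel the tip arrays lie near or above the stalk arrays, with Cdh16 the gene whose tip arrays both lie below them, and in the right panel they lie below the stalk arrays for every gene but Moxd1.

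Transcription factors of the nephric duct and bud were higher in stalks for 8 of 13 tested of 16 listed, with a median of 1.73. Emx2, a homeobox gene the bud needs to branch and induce nephrons, was at 933 and 877 in the stalk arrays and 65.8 and 53.6 in the mesenchyme arrays (3.61, SE 0.082, adjusted p = 3.31e-08). The nephric duct regulators Gata3 (2.79) and Lhx1 (2.21), the bHLH factor Sim1 (2.88), and the factors Tfap2a (2.55) and Tfap2b (2.13) differed in the same direction. All of these had higher intensities in tips than in stalks. Sox9, a factor of bud tips, and Gata2, another GATA factor of the urogenital tract, had lower intensities in tips than in stalks. Sox9 was at 604 and 594 in stalks, 208 and 173 in mesenchyme and 445 and 452 in tips (1.58). Gata2 was at 1023 and 1218 in stalks and 304 and 350.3 in mesenchyme (1.73, SE 0.10, adjusted p = 7.93e-06), and its 310.4 and 350.5 in tips was close to the mesenchyme level. Pax8, a factor of duct and nephron, differed by 0.43 and was not called, and neither were Sox4 (-0.10) and Sox11 (0.14). Another probe set of Sox11 was called higher in mesenchyme, at -1.05.

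Ret signalling was split between the tissues. Ret was at 298 and 309 in stalks and 19.8 and 27.4 in mesenchyme (3.02, SE 0.10, adjusted p = 3e-07), while its ligand Gdnf was at 144 and 147 and 405 and 417 (-1.41, SE 0.11, adjusted p = 3.63e-05). The receptor was high on the stalk side and the ligand on the mesenchyme side, with the tips at 1572 and 1490.3 for Ret and 75.6 and 65.4 for Gdnf. The co-receptor Gfra1 differed by 0.39 and was not called. The other genes of bud tip signalling were called in part, against 2.94% of all tested genes. Of 13 tested genes of bud tip signalling, 3 were higher in stalks, Ret, the guidance ligand Sema3c (2.06) and the transporter Slco4c1 (1.36), which was not called on the mean of its probe sets (0.73). Etv4 (-0.61), Etv5 (-0.25), Spry1 (0.37) and Wnt11 (0.68), targets and feedback genes of the signal, were not called, and the median was 0.37. Of the 10 genes of this list not called, 4 had a positive and 3 a negative difference with an adjusted p under 0.05.

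Other receptors and ligands between the tissues were mostly below the threshold. Of 32 tested members of ligand and receptor pairs, 4 were higher in stalks and 1, Gdnf, in mesenchyme, with a median of -0.05, the same as for all tested genes. Besides Ret these were the neuregulin receptor Erbb3, at 518 and 579 in stalks and 41 and 54.6 in mesenchyme (3.15), the KIT ligand Kitl, at 1882 and 1953 and 611 and 577 (1.66), and the endothelin receptor Ednrb, at 928 and 975 and 372 and 346 (1.37). Ednrb stood at 382 and 356 in tips, near the mesenchyme level, whereas Kitl reached 3454 and 3616 there. Met (0.25) and its ligand Hgf (-0.35), and the receptor Kit (-0.18), were not called. Among 18 tested FGF genes the receptors Fgfr2, at 1749.9 and 1847 in stalks and 754 and 744 in mesenchyme (1.25), and Fgfr4 (1.46) were higher in stalks. Fgfr4 was at 0.61 on the mean of its probe sets and was then not called. Fgfr1 (-0.79), a receptor of the mesenchyme, had an adjusted p under 0.05 but was not called, and the median of the list was 0.07.

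Nephron progenitor genes formed the main group on the mesenchyme side. Of 25 listed, 21 were tested, 13 were higher in mesenchyme and 0 in stalks, with a median of -1.41. Eya1, a co-activator at the head of the progenitor network, was at 2132 and 2212 in the mesenchyme arrays and 489 and 472 in the stalk arrays (-2.14, SE 0.091, adjusted p = 9.57e-07). Sall1, a zinc finger factor needed for bud outgrowth, was at 1554 and 1522 and 509 and 488 (-1.59, SE 0.068, adjusted p = 1.02e-06). Wt1, a regulator of progenitors and later of podocytes, was at 632 and 612 and 214 and 191 (-1.55, SE 0.14, adjusted p = 8.83e-05). For these 3 genes the arrays of the tissues stood clearly apart, but the stalk arrays still held more signal than the tip arrays, which were at 127 and 101 for Eya1, 215 and 190.2 for Sall1 and 101 and 71.5 for Wt1. The homeobox genes Meox1 (-2.64), Meox2 (-2.33), Six2 (-1.85) and Uncx (-1.73), the zinc finger factor Osr1 (-1.66) and the thyroid hormone-binding protein Crym (-2.13) were higher in mesenchyme too. The phospholipase Pla2g7 (-1.04) and the Eya paralogue Eya4 (-1.03) lay at the threshold, and Eya4 stood at -0.97 without the first mesenchyme array. Pla2g7 was not called with values as deposited or scaled to a common mean.

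Not every progenitor gene followed. Cited1, a marker of the least committed progenitors, was at 296 and 263 in mesenchyme, 166 and 166 in stalks and 219.7 and 198 in tips, and its difference of -0.70 was not called. Itga8, an integrin through which the mesenchyme binds the matrix of the bud, differed by -0.46 (adjusted p = 0.108). The 8 progenitor genes not called had differences of -0.97 to 0.11, and 5 of them had an adjusted p under 0.05. Genes that mark early nephron structures were not called higher in mesenchyme. Of 16 tested, 3 were higher in stalks, the duct and nephron gene Lhx1, the Notch ligand Jag1 (1.29) and the POU factor Pou3f3, at 672 and 685 in stalks and 43.1 and 35.5 in mesenchyme (3.65), with a median of 0.00. Wnt4, the inducer of the renal vesicle (-0.04), Fgf8 (-0.44), and the Notch ligand Dll1 (-0.10) were not called.

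**Figure D3:**
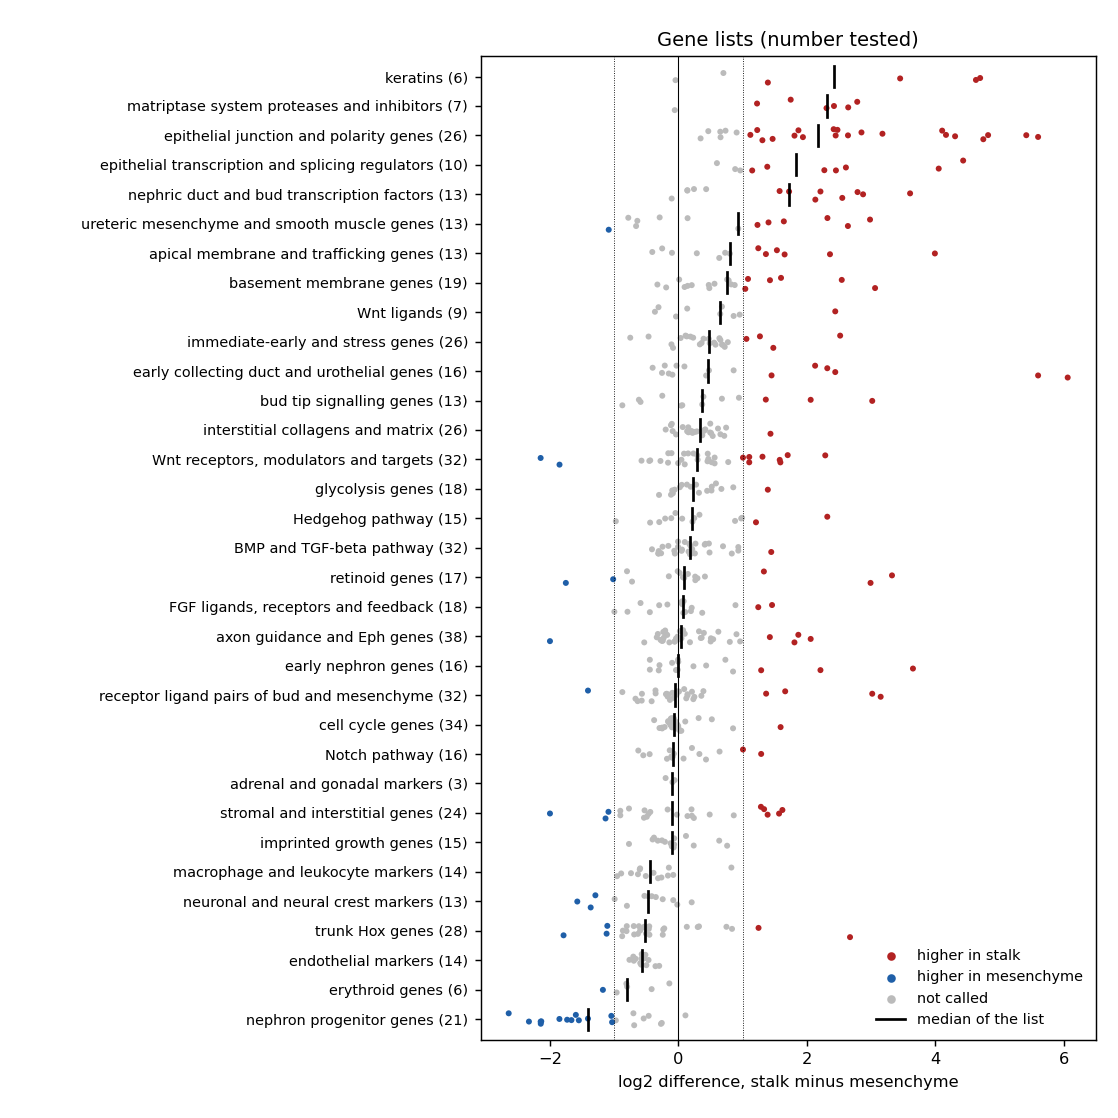
The log2 difference, stalk minus mesenchyme, of every tested member of 33 gene lists (number tested in brackets), ordered by list median (black bar); red points were called higher in stalk, blue points higher in mesenchyme, grey points not called, and the dotted lines mark a 2-fold difference. Keratins (median 2.42) and the matriptase system (2.31) head the order and nephron progenitor genes (-1.41) close it.

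Stromal genes were called on both sides. Of 24 tested, 5 were higher in stalks and 3 in mesenchyme, and the median was -0.09. On the mesenchyme side were Foxd1 (-1.13), the factor that defines stromal progenitors around the nephron-forming zone, the guidance ligand Ntn1 (-2.00) and the secreted protein Fibin (-1.09). Foxd1 was at 1922 and 1889 in mesenchyme, 889 and 832 in stalks and 99.6 and 62.1 in tips, and against a 1.5-fold difference it did not pass (adjusted p = 0.102). Its relative Foxd2, outside that list, was at 442 and 462 in mesenchyme and 208 and 201 in stalks (-1.08). On the stalk side were the opioid precursor Penk (1.62), the surface protein Thy1 (1.57), the matrix-associated Smoc2 (1.39), the adhesive matrix protein Postn (1.34) and the proteoglycan Lum (1.29). Penk was at 152 and 156 in stalks, 37.2 and 41.6 in mesenchyme and 39.2 and 26.5 in tips. Thy1 was at 343 and 345, 114 and 97.5 and 80.5 and 67.3 in the same order. These 2 genes were thus higher in the stalk pool than in mesenchyme, and the tips were at or below the mesenchyme level. The general stromal markers Pdgfra (0.14) and Pdgfrb (-0.17) were not called.

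Genes known from the mesenchyme of the future ureter were called on both sides. Of 18 listed genes of ureteric mesenchyme and smooth muscle, 13 were tested, 6 were higher in stalks and 1 in mesenchyme, with a median of 0.93, and 1 more in stalks and 3 more in mesenchyme had an adjusted p under 0.05 alone. Car3, a carbonic anhydrase abundant in muscle and mesenchyme, was at 2769 and 2924 in the stalk arrays and 351 and 339.8 in the mesenchyme arrays (2.99, SE 0.074, adjusted p = 5.32e-08). Actc1, cardiac-type actin, was at 1532 and 1689.8 and 308 and 309.9 (2.32, SE 0.11, adjusted p = 1.58e-06), and Tshz3, a factor of ureteric muscle differentiation, at 624 and 603 and 248 and 198 (1.40, SE 0.12, adjusted p = 6.95e-05). All 3 were lower in tips than in mesenchyme, at 258 and 221 for Car3, 48.2 and 63.3 for Actc1 and 49.7 and 45.3 for Tshz3. Tbx18 (1.23), which specifies ureteric mesenchyme, was called too but did not pass against a 1.5-fold difference (adjusted p = 0.181).

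The T-box genes Tbx2 and Tbx3, which keep ureteric mesenchyme proliferating, had another profile. Tbx3 was at 736 and 837 in stalks, 101 and 125 in mesenchyme and 990.1 and 917 in tips (2.64), and Tbx2 at 358 and 359, 111 and 97.2 and 747 and 694 (1.64). Unlike Tbx18 they were thus high in both bud samples. Of 7 tested T-box genes these 3 were the only ones called, against 3.5% of all tested genes. Mature smooth muscle genes were not among the genes higher in stalks. Acta2 (-0.66) and Tagln (-0.78) were not called, Des, a muscle filament, was higher in mesenchyme (-1.08) but not against a 1.5-fold difference (adjusted p = 0.0616) or with a pseudocount of 64 (-0.87), and Myh11, Cnn1 and Actg2, which define contractile smooth muscle, lay below the table's median in both tissues.

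Genes of the basement membrane were called more often than those of the interstitial matrix, a difference that was not tested. Over all tested genes 2.94% were higher in stalks and 0.558% in mesenchyme. Of 26 tested genes of interstitial collagens and matrix, 1 was higher in stalks, the fibril-associated collagen Col14a1, at 286 and 313 in stalks and 102 and 99.7 in mesenchyme (1.44), and the median was 0.33. The fibrillar collagens Col1a1 (0.16), Col1a2 (0.42) and Col3a1 (0.14) were not called. Of 19 tested basement membrane genes, 6 were higher in stalks, with a median of 0.76. Npnt, the bud ligand of the integrin Itga8, was at 775 and 741 in stalks and 82.2 and 71.2 in mesenchyme (3.06, SE 0.071, adjusted p = 3.6e-08). Of its 5 tested probe sets 2 were called, and the 5 differed by 0.22 to 3.06. Frem2, which joins Fras1 in a complex of the bud's basement membrane, was at 693 and 729.7 and 104 and 113 (2.55, SE 0.060, adjusted p = 3.62e-08). Its partners Fras1 (0.82) and Frem1 (0.47) were not called. The laminin chains Lama1 (1.60), Lama5 (1.09) and Lamc1 (1.04) and the collagen Col18a1 (1.43) made up the rest, and Lamc1 was not called on the mean of its probe sets (0.80). None of 15 tested integrins was called by limma, against 3.5% of all tested genes. An unadjusted p under 0.05 was reached by 7, and an adjusted p under 0.05 by 4, all with positive differences. Over all tested genes 9.91% had such a positive difference with no minimum fold. Among 38 tested metalloproteinases and inhibitors 1 was called, Adamts12, higher in mesenchyme at 372 and 359.9 against 124 and 137 (-1.38).

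Wnt signalling was arranged with a ligand and inhibitors on the stalk side and R-spondins on the mesenchyme side. The shares of all tested genes called were 2.94% in stalks and 0.558% in mesenchyme. Of 9 tested Wnt ligands, 1 was higher in stalks, Wnt9b, the bud signal that induces nephrons, at 382 and 399 in the stalk arrays and 43.4 and 78 in the mesenchyme arrays (2.44, SE 0.18, adjusted p = 2.94e-05). Another probe set of Wnt9b differed by 0.32. The stalk ligand Wnt7b (0.86), the tip ligand Wnt11 (0.68), Wnt6 (0.65) and Wnt5a (0.96) had adjusted p-values under 0.05 without reaching 2-fold, and without the first mesenchyme array the count of called ligands was 2. R-spondins amplify Wnt signals at the receptor. Rspo1 was at 465 and 359.9 in mesenchyme and 78.8 and 81.7 in stalks (-2.14, SE 0.18, adjusted p = 7.03e-05), and Rspo3 at 761 and 700.0 and 202 and 180.5 (-1.85, SE 0.12, adjusted p = 1.09e-05). Their tip arrays were at 34.4 and 21 for Rspo1 and 29.6 and 23.9 for Rspo3, below the stalk arrays, and Rspo2 (-0.16) was not called.

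Of 32 tested Wnt receptors, modulators and targets, 8 were higher in stalks and these 2 R-spondins in mesenchyme, with a median of 0.30. The shares over all tested genes were 2.94% and 0.558%. Dkk2, a secreted inhibitor of Wnt co-receptors, was at 246 and 226 in stalks, 38.3 and 33 in mesenchyme and 15.5 and 14.3 in tips (2.29). The inhibitor relative Dkk3 was at 185 and 192, 53.3 and 51.7 and 85.3 and 91.9 (1.58). Sostdc1, which binds Wnt co-receptors and BMPs, was at 97.6 and 99.2, 18.7 and 25.6 and 189.6 and 171 (1.59). The inhibitors thus differed in the tips, where Dkk2 was below mesenchyme and Sostdc1 above stalks. The receptors Fzd6 (1.70) and Fzd5 (1.10), the ubiquitin ligase Rnf43 (1.10) that removes Frizzled receptors, and the Wnt target Tnfrsf19 (1.31) were also higher in stalks. Tnfrsf19 was not called on the mean of its probe sets (0.81), and Fzd5 and Rnf43 did not pass against a 1.5-fold difference (adjusted p = 0.176 and 0.079). Sfrp2, a secreted Wnt-binding protein, was at 2628 and 2668 and 1315 and 1303 (1.01), just past the threshold, and it was not called without the second tip array (1.00), the second stalk array (1.00) or the second mesenchyme array (0.99). The R-spondin receptor Lgr4 (0.57) was not called.

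Hedgehog signalling runs from the epithelium of the stalk to the mesenchyme around it. Shh was at 588 and 511 in stalks, 96.8 and 97 in mesenchyme and 321 and 344 in tips (2.32, SE 0.092, adjusted p = 7.16e-07), so the arrays of stalks were above those of both other tissues. Ptch1, receptor and target of the pathway, was at 1903 and 1805, 792 and 793 and 676 and 649 (1.21) and was not called on the mean of its probe sets (0.84). The further targets Gli1 (0.98) and Hhip (0.99), named after their values were seen, lay just short of 2-fold, each with an adjusted p under 0.05. The count of called Hedgehog genes, 2 of 15 in stalks with a median of 0.22, moved with single arrays, and was 4 without the second tip array and 5 without the second mesenchyme array. The transducers Smo (0.22), Gli2 (0.25) and Gli3 (0.06) and the co-receptor Gas1 (-0.97) were not called. Another probe set of Gas1 was called higher in mesenchyme, at -1.19. For comparison, 2.94% of all tested genes were higher in stalks.

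Retinoid genes were called on both sides. Retinaldehyde dehydrogenases make retinoic acid. Aldh1a3 was at 342 and 339 in stalks and 21.7 and 17.5 in mesenchyme (3.33, SE 0.096, adjusted p = 1.03e-07), and Aldh1a1 at 265 and 264 and 22.6 and 16.1 (2.99). Aldh1a7 (1.33) was higher as well, but it is a close copy of Aldh1a1 and cross-hybridisation was not tested. On the mesenchyme side were Crabp1, a binding protein of retinoic acid, at 1309.8 and 1238 in mesenchyme, 368 and 366 in stalks and 61 and 40.5 in tips (-1.75), and Rdh10, which makes the retinaldehyde used by these enzymes, at 2022 and 2034, 989.5 and 1003 and 835 and 809.8 (-1.01). Rdh10 lay at the threshold and was not called with values as deposited. The stromal enzyme Aldh1a2 (-0.80) was not called. In all, 3 of 17 tested genes were higher in stalks and 2 in mesenchyme, against 2.94% and 0.558% of all tested genes, with a median of 0.09.

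The counts for BMP, Notch and guidance genes follow, against 2.94% of all tested genes higher in stalks and 0.558% in mesenchyme. Of 32 tested BMP and TGF-beta genes, 1 was higher in stalks, the inhibitory bHLH factor Id4, at 2194 and 2176 in stalks and 818 and 765 in mesenchyme (1.45), and 11 others had a positive difference with an adjusted p under 0.05 alone, among them Bmp4 (0.93). The median was 0.18, and without the first mesenchyme array 2 of the genes were called. Of 16 tested Notch genes, with a median of -0.08, 2 were higher in stalks, the ligand Jag1, at 701 and 706 in stalks and 284 and 273 in mesenchyme (1.29), and the feedback gene Nrarp (1.01). Nrarp was not called without the first tip array (1.00), the first stalk array (0.98) or the second mesenchyme array (0.94). Of 38 tested axon guidance and Eph genes, 4 were higher in stalks and Ntn1 in mesenchyme, with a median of 0.04. Sema3c was at 2070.4 and 1846 in stalks and 459.7 and 453 in mesenchyme (2.06), the ephrin Efnb2 at 1347 and 1285 and 388 and 341 (1.81), and the semaphorin Sema5a at 353 and 315 and 106 and 59.3 (1.87). The receptor Plxna2, at 370.4 and 345 and 123 and 123 (1.43), was the only one of these 4 that was lower in tips, 76.4 and 77.4, than in mesenchyme.

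Hox genes, which give cells their position along the body axis, lay on different sides by cluster. Of 28 tested trunk Hox genes, 2 were higher in stalks and 3 in mesenchyme, with a median of -0.51. All 6 tested Hoxc genes had differences below 0 with an adjusted p under 0.05, and their median was -0.84. Hoxc10 was at 893 and 849.8 in mesenchyme and 398 and 389 in stalks (-1.12), and Hoxc8 at 302 and 297 and 133 and 129 (-1.10), and these 2 were called, although neither passed against a 1.5-fold difference (adjusted p = 0.246 and 0.171). All 7 tested Hoxa genes were below 0 as well, 4 of them with an adjusted p under 0.05, and none was called. The Hoxd cluster was mixed, with 5 of 8 tested genes above 0. Hoxd1 was at 206 and 196 in stalks, 19.9 and 16.2 in mesenchyme and 398 and 356 in tips (2.67, SE 0.12, adjusted p = 1.62e-06). Hoxd8 was at 939 and 963, 368 and 415 and 1669 and 1600.2 (1.25). Hoxd10 (-0.50), Hoxd11 (-0.69) and Hoxd12 (-0.46) lay on the mesenchyme side and Hoxd13 (0.75) on the stalk side, none of them called. In the Hoxb cluster Hoxb1, an anterior paralogue, was at 157 and 201 in mesenchyme and 38.3 and 41.9 in stalks (-1.79), while its neighbours from Hoxb2 to Hoxb9 had differences of -0.53 to 0.30.

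**Figure D4:**
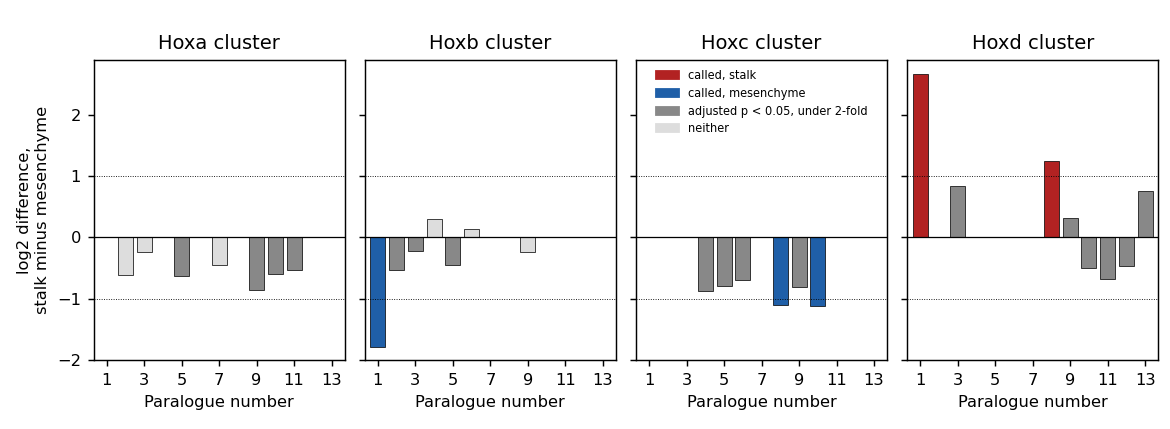
The log2 difference, stalk minus mesenchyme, of each tested Hox gene by cluster (panels) and paralogue number (x axis); red bars were called higher in stalk, blue bars higher in mesenchyme, dark grey bars had an adjusted p under 0.05 with less than 2-fold, and light grey bars had neither. Every Hoxa and Hoxc bar points down, while Hoxd1 (2.67) and Hoxd8 (1.25) point up.

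Transcripts of vessels, blood and nerves leaned toward the mesenchyme. As a background for the counts, 2.94% of all tested genes were called in stalks and 0.558% in mesenchyme. None of 14 tested endothelial markers was called by limma, but all 14 had differences below 0, from -0.76 to -0.30, with an unadjusted p under 0.05 for 14 and an adjusted p under 0.05 for 10. Their summed intensity was 2791.6 to 2926 in the stalk arrays and 4276 to 4331 in the mesenchyme arrays. Macrophage markers summed to 1099 to 1159.8 and 1605 to 1733. An adjusted p under 0.05 alone was reached by 4 with a negative and 1 with a positive difference. None of the 14 tested was called by limma, 9 had an unadjusted p under 0.05, and the median was -0.45. Without the first mesenchyme array 1 of them was called higher in stalks, and without the second 2 were called higher in mesenchyme. Erythroid genes summed to 16671 to 16719 in stalks and 22320.1 to 22645 in mesenchyme. The embryonic globin Hbb-bh1 was at 3616 and 3679 in mesenchyme and 1628 and 1589 in stalks (-1.17), while Hba-x (-0.96) and Hbb-y (-0.14) were not called, and cross-hybridisation between globins was not tested. Neuronal and neural crest markers were higher in mesenchyme for 3 of 13 tested, Stmn2 (-1.57), Elavl4 (-1.36) and Nefl (-1.29), and their sums were 997.9 to 1019.7 against 1665 to 1689. With a pseudocount of 64, Elavl4 (-0.85) and Nefl (-0.94) were not called, Nefl did not pass against a 1.5-fold difference (adjusted p = 0.0646), and 1 of the 3 was called with the filter at the 75th percentile. Stmn2, a microtubule regulator of growing axons, was at 243 and 214 in mesenchyme and 74.6 and 58.2 in stalks. The neuronal tubulin Tubb3 was near background in both tissues, at 46.9 and 32.2 in mesenchyme and 44 and 51.5 in stalks. Of 3 tested adrenal and gonadal genes none was called by limma and 0 had an unadjusted p under 0.05, and Nr5a1 and Cyp11a1, which define steroid-producing cells, lay below that median in both tissues. The part of these cells in the differences of other genes was not tested.

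Genes that answer to stress leaned toward the stalk. On the list of immediate-early and stress genes, 4 of 26 tested members were called in stalks and 0 in mesenchyme, with a median of 0.48. Over all tested genes 2.94% were called in stalks. An adjusted p under 0.05 alone was reached by 11 more with a positive and 2 with a negative difference. With no minimum fold the counts were 15 and 2, against 9.91% and 5.7% of all tested genes. Fosl2, a Fos-related factor, was at 919.6 and 894 in stalks, 155 and 135 in mesenchyme and 949 and 826 in tips (2.52), though another probe set differed by -0.01. Klf6 (1.27), the heat shock gene Hspa1b (1.48) and the early growth response gene Egr2 (1.06) were the others, and Egr2 stood at 0.96 without the second mesenchyme array. Hspa1b has a near-identical copy, Hspa1a, which was not tested. The summed intensity of the list was 40074 to 40742 in stalks, 33191 to 33517 in mesenchyme and 32055 to 32936 in tips. Whether handling of the tissues contributed to other differences was not tested.

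The counts for genes of proliferation and energy metabolism are set against the 3.5% of all tested genes that were called. Of 34 tested cell cycle genes 1 was called, the inhibitor Cdkn1a, at 360.1 and 373 in stalks and 105 and 117 in mesenchyme (1.59), which stood at 0.97 on the mean of its probe sets. The proliferation marker Mki67 differed by 0.01 and Top2a by 0.11, and the list's median was -0.07. Of 18 tested glycolysis genes 1 was higher in stalks, the neuronal-type enolase Eno2, at 125 and 97.8 in stalks and 35.8 and 28.9 in mesenchyme (1.39). Eno2 was not called with a pseudocount of 64 (0.86) and was not tested with the filter at the 75th percentile. With no minimum fold, 9 of the 18 glycolysis genes had a positive and 1 a negative difference with an adjusted p under 0.05. Over all tested genes these shares were 9.91% and 5.7%, and the median of the glycolysis list was 0.24. None of 15 tested imprinted growth genes was called by limma, although 11 had an unadjusted and 8 an adjusted p under 0.05, and the growth factor Igf2 differed by -0.07.

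Genes of the later collecting duct were present in part. Of 19 listed collecting duct and urothelial genes, 16 were tested and 6 were higher in stalks, with a median of 0.46. Besides Calb1, Cldn8, Shh and Wnt9b these were subunits of the epithelial sodium channel. Scnn1g was at 172 and 182 in stalks and 25.9 and 30.4 in mesenchyme (2.13), and Scnn1b at 135 and 117 and 42.3 and 29.9 (1.45). The other subunit, Scnn1a, differed by -0.09 and was not called. The water channels Aqp2 (-0.03) and Aqp3 (0.10) were not called either. Channels and transporters were counted over their families, against the 2.94% of all tested genes that were higher in stalks. Of 42 tested potassium channel subunits 3 were higher in stalks, Kcnk1 (3.09), Kcnj16 (2.27) and Kcnk2 (1.41). Kcnj16, an inward rectifier of tubule epithelium, was at 225 and 211 in stalks and 37.1 and 28.1 in mesenchyme, and Kcnk2 at 533 and 535 and 209 and 175 but at 28.6 and 29.5 in tips. Of 232 tested solute carriers 5 were higher in stalks and 0 in mesenchyme, the amino acid carrier Slc7a8 (2.00), the sodium and calcium exchanger Slc8a1 (2.24), Slc35g1 (1.49), Slco4c1 and the sulfate carrier Slc26a2 (1.02), which stood at 1.00 and was not called without the first stalk array. Of 29 tested forkhead genes 2, Foxa1 (1.49) and Foxq1 (1.03), were higher in stalks. In mesenchyme 2 were higher, Foxd1 and Foxd2, and the family's median was -0.11. Foxq1 was not called without the second stalk array (0.95) or the first mesenchyme array (0.97).

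The tip arrays divided these genes further. The median tip intensity of the 363 genes higher in stalks was 348.1, against 286.8 in stalks and 62.7 in mesenchyme. The 69 genes higher in mesenchyme had medians of 412 in mesenchyme, 131 in stalks and 46.7 in tips, and for 38 of them (55.1%) the tip mean was below the table's median of 49.5. The same held for 562 (4.55%) of all tested genes and for 22 (6.06%) of the genes higher in stalks. Most stalk genes thus had tip means above that median, as did most of all tested genes, and most mesenchyme genes did not. The filter kept a gene on its highest tissue mean, so every gene with a tip mean below 49.5 passed it through stalks or mesenchyme. The called genes were also selected for a difference between those tissues. These shares therefore depend in part on the selection, and the contrast between them was not tested.

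The 22 stalk genes with little tip signal, chosen after their values were seen, were Plcxd3, Dkk2, Mymx, Penk, Sulf1, Foxa1, Fut9, Cldn11, Prr15, Cntn1, Kcnk2, Tshz3, Sphk1, AI593442, Lrrc17, Avpr1a, Lum, Negr1, Pdgfd, Zfp536, Car8 and Tinag. Plcxd3, a phospholipase-related gene, was at 853 and 695 in stalks, 124 and 120.0 in mesenchyme and 31.8 and 16.6 in tips. Sulf1, which trims sulfate from heparan sulfate, was at 1143 and 1102, 389 and 375 and 50.3 and 30.3. Foxa1, a forkhead factor of endodermal and urogenital epithelium, was at 113 and 84.8, 27.6 and 21.8 and 21.8 and 27.3. Plcxd3 and Sulf1 had mesenchyme levels well above those of the tips, whereas Foxa1 was equally low in mesenchyme and tips. Penk and Lum of the stromal list and Tshz3 of the ureteric mesenchyme list were in this set.

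**Figure D5:**
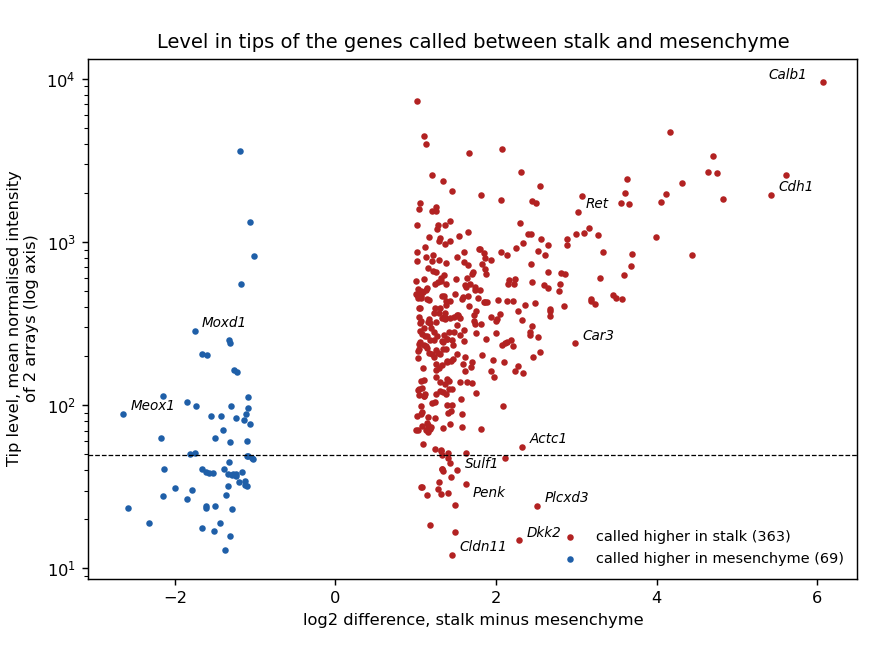
Mean normalised intensity of the 2 tip arrays (log axis) against the log2 difference, stalk minus mesenchyme, for the 363 genes called higher in stalk (red) and the 69 called higher in mesenchyme (blue); the dashed line is the median of the table, 49.5. Below that line lie 22 of the red points and 38 of the blue points.

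Genes measured by more than 1 probe set gave a check within the arrays. Of 5513 such genes, 231 had at least 1 called probe set, 83 of these had every tested probe set called in 1 direction, and 0 had probe sets called in opposite directions. Calb1 had 3 of 3 probe sets higher in stalks, with differences of 2.91 to 6.06, Efnb2 4 of 4 (1.03 to 1.81) and Eya1 2 of 2 higher in mesenchyme (-2.14 to -1.98). Disagreement in size was common, as with Epcam (0.31 to 4.17), Pou3f3 (0.65 to 3.65), Erbb3 (0.57 to 3.15), Sim1 (0.39 to 2.88) and Grhl2 (0.39 to 2.61), each with 1 called probe set.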

How the data were processed

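RNA of each tissue was amplified, labelled and hybridised to Affymetrix mouse arrays, per the labels' protocols. The deposited values are an intensity per probe set on a linear scale, with array software, scaling and summary method not given in the sources used here. Of 45101 probe sets, 64 controls were left out. The 6 mouse arrays of the series (tip, stalk, mesenchyme) were quantile normalised, 16 was added and log2 taken. Probe sets whose highest tissue mean lay below the median of the table, 49.5, were left out, leaving 23937. limma 3.58.1 (R 4.3.3) fitted all 6 arrays with a mean per tissue and an intensity trend, and the contrast was stalk minus mesenchyme. A call needed an adjusted p under 0.05 (Benjamini-Hochberg) and at least 2-fold. The script was tested on simulated data.

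Names came from the platform annotation, where 34945 probe sets have 1 symbol, 932 several and 9160 none; those with several were not named. The probe set with the highest mean stood for a gene. The genes named were the 15 largest differences in each direction with non-overlapping arrays, every called gene of 33 lists, and uncalled genes among the first 6 of a list or the partner or paralogue of a named gene. Called members of 9 families defined by symbol were added after their values were seen. Of 678 listed genes, 35 had no probe set named for them alone and 76 were too low to test. The comparison and its lists were chosen with earlier results of these data known. Alternatives changed the scaling, pseudocount, filter, arrays, block and fold rule. No array sequences were used here.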

Additional observations from a re-analysis of the deposited data

How the results depend on the processing

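The main setting called 663 probe sets, 561 of them higher in stalks and 102 in mesenchyme. With a pseudocount of 64 the counts were 392, 334 and 58, and with an adjusted p under 0.05 and no minimum fold 3131, 1954 and 1177, where the share higher in stalks was 62.41% instead of 84.62%. Under the other alternatives run, 499 to 845 probe sets were called, 80.36% to 86.23% of them higher in stalks. Leaving out 1 array at a time gave 648 to 697 calls, 540 to 601 in stalks and 96 to 132 in mesenchyme. A replicate block on the labelling number gave 663, 561 and 102, the same 663 probe sets, and changed no other call. The arrays share only that number across tissues, and deviations of same-numbered arrays correlated at 0.424 to 0.566.

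Of 156 named genes, 114 kept their call under every alternative that tested them, and 0 changed direction. The pseudocount of 64 removed 35 calls, the test against 1.5-fold 16 and the mean of all probe sets 13. On that mean, besides the genes given above, Foxd2 (-0.91), Egr2 (0.98), Eya4 (-0.90), Nrarp (0.91) and Slc26a2 (0.83) were not called. Without the second stalk or the first mesenchyme array, 1 forkhead gene was called in stalks instead of 2. The number of arrays and the pool of RNA behind both limit all values, and levels near the median of the table are close to background.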

Other observations

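Several called genes that belong to none of the lists are given here as values, chosen after their values were seen and without a test of their grouping. On the stalk side, the fibrocystin gene Pkhd1, mutated in recessive polycystic kidney disease, was at 115 and 99.5 in stalks and 7.6 and 9.07 in mesenchyme, a log2 difference of 2.34. The RNA-binding protein gene Bicc1 was at 1028 and 1039 and 370.2 and 378 (1.43), the cilium gene Cys1 at 163 and 195 and 54.4 and 49.8 (1.51) and the transcription factor Glis3 at 103 and 91.1 and 25.5 and 20.2 (1.54). The doublecortin-domain gene Dcdc2a differed by 3.49 and the kinesin Kif12 by 2.67. For each of these 6 genes the stalk arrays lay above the mesenchyme arrays, and the tip arrays above the mesenchyme arrays too.

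The arginases went in opposite directions. Arg1, the cytosolic enzyme, was at 565 and 581 in mesenchyme, 93.5 and 71.7 in stalks and 25.4 and 21.8 in tips (-2.59). Arg2, the mitochondrial enzyme, was at 15.8 and 18.3, 125 and 136 and 571 and 536 in the same order (2.14). Other genes higher in mesenchyme included the muscle proteins Actn3 (-2.17) and Tpm2, at 3659 and 3737 in mesenchyme and 1145 and 1173 in stalks (-1.66), the hyaluronan synthase Has2 (-1.24), the matrix protein Efemp1 (-1.53), the protease Fap (-1.51) and the transcription factors Ebf2 (-1.43) and Ebf3 (-1.27). The macrophage sums given above were higher in mesenchyme, as Arg1 was. The macrophage marker Ptprc went the other way, at 59.1 and 66.2 in stalks and 35.3 and 22.3 in mesenchyme (0.83, not called). Macrophages can express Arg1, and their part in its value was not tested.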
